A study of Mus musculus with 3 samples.

Results

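Molecular chaperones and protein folding enzymes were examined in renin cells sorted from the kidney cortex of treated mice. Members were taken by gene symbol: the heat shock protein families Hspa, Hspb, Hspd, Hspe, Hsph and Hsp90, the J proteins Dnaja, Dnajb and Dnajc, the protein disulfide isomerases Pdia, the prolyl isomerases Fkbp, the chaperonin subunits Cct, and 13 single symbols of the endoplasmic reticulum (ER) and its stress response. This rule found 111 of the 19938 genes measured by a probe set with 1 symbol, through 135 probe sets, and it used no signal. Of the single symbols, Ero1l found no gene, because the platform names this oxidase Ero1a. Fkbp6, Fkbp10, Hsp90ab1 and Hspa1b were not analysed here.

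All samples came from adult male Ren1c-YFP mice (strain unspecified), in which a yellow fluorescent protein marks cells that use the renin promoter. Every mouse drank captopril, which blocks the angiotensin-converting enzyme, at 0.5 mg/ml and ate low-salt chow for 2 weeks, and YFP-positive cells were then collected by fluorescence-activated sorting after collagenase digestion. The labels give 1 group of 3 unpooled arrays, numbered replicates 2, 4 and 5, and no untreated group was analysed, so no value below measures an effect of captopril or of salt. Because no source states that the arrays came from separate animals, the p-values reflect nothing more than how these samples scatter, which may be technical.

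Values are deposited log2 signals, 1 per probe set and array, and are given in the order replicate 2, replicate 4, replicate 5. The background level of each array was the 95th percentile of its olfactory receptor genes, 6.20, 6.32 and 6.50. A gene was called above background where limma's one-sided moderated test of the mean log2 signal minus this level gave a Benjamini-Hochberg adjusted p under 0.05 over all 19938 genes. Errors are SDs over the 3 arrays. A signal depends on the affinity of its probes, so 2 genes' signals are not ranked against each other.

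The sorted samples carried transcripts of more than 1 cell type. All 14 renin and mural cell markers were called, but so were 12 of 12 proximal tubule, 7 of 7 thick ascending limb and 7 of 7 collecting duct markers, along with 7 of 11 endothelial markers. Of 10 macrophage and dendritic cell markers 3 were called (30.0%), against 37.3% of all genes. These were Cx3cr1, H2-Aa and Tyrobp, at 1.31, 1.34 and 0.38 above background and above the level on all 3 arrays. By contrast, 6 of the 10 lay under the background level on every array, among them Adgre1, Csf1r and Ptprc. Chaperones are used by renin, tubule and endothelial cells alike, so a member's signal cannot be assigned to the renin cells, and fewer cells of a type cannot be told apart from less RNA per cell.

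Many chaperones bind unfolded stretches of other proteins and release them in rounds driven by ATP. HSP70 proteins do so with J proteins, which bring substrates and start ATP hydrolysis, and with exchange factors that reset the cycle; HSP90 acts on later folding steps of kinases and receptors, and the ring-shaped chaperonins enclose a substrate. In the ER, where renin is made as a secretory glycoprotein, lectin chaperones bind its sugar-bearing clients, disulfide isomerases pair cysteines and FKBP enzymes turn proline bonds. When folding in the ER lags, the sensors ATF6, IRE1 and PERK raise transcription of these genes through ATF6, XBP1 and ATF4, and in the cytosol heat shock factors do the same for heat shock proteins.

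Most of these genes were above background. Of the 111 members, 84 were called (75.7%), against 7437 of all 19938 genes (37.3%). The median member lay 1.69 log2 units above the background level, against a median of -0.01 over all genes. With the stricter 99th percentile as the level, 59 of the 111 members were called, against 3303 of all 19938 genes (16.6%). The 27 members not called at the usual level include 12 that lay under it on every array. At the usual level all 11 classes of members had a larger called share than all genes. The share was highest for ER chaperones and lectins (9 of 9) and ER stress factors (5 of 5). It was lowest for small heat shock proteins and HSP-binding genes (5 of 10). At the 99th percentile this last class fell under the share of all genes, with 1 of 10 called. At the level of the keratin-associated protein genes, 0 of these 10 and 0 of the 5 ER stress factors were called. There 709 of all 19938 genes were called. The classes other than these kept a larger share than all genes at both levels.

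**Figure D1:**
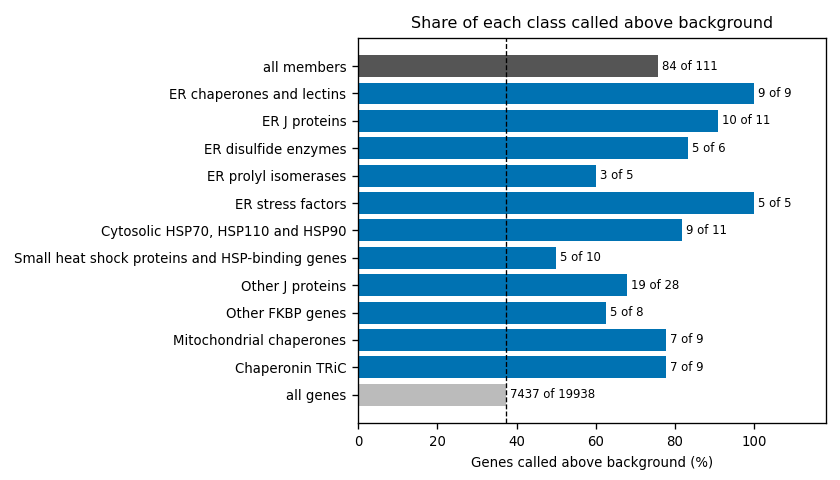
Share of genes called above background by limma (x axis, %) for all 111 members, for the 11 classes and for all 19938 genes, with the number called of the number measured beside each bar. The dashed line marks the 37.3% of all genes, and every class bar ends to the right of it, from 50.0% for small heat shock proteins to 100% for ER chaperones and for ER stress factors.

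The chaperones and lectins of the ER were all called, and their signals lay close together across arrays. Hspa5 encodes BiP, the ER member of the HSP70 family, which binds nascent chains and holds the stress sensors inactive. It read 11.45, 11.45 and 11.62, with replicate 5 the highest by 0.16 units against the mean of the other 2, and lay 5.17 above background (mean 11.51 ± 0.09, limma adjusted p = 2.93e-07). Hsp90b1, which encodes the ER member of the HSP90 family (GRP94), read 12.87, 12.89 and 12.87. Its 3 arrays lay within 0.02 units, 6.54 above background (limma adjusted p = 6.41e-08). Calr and Canx encode calreticulin and calnexin, the soluble and the membrane-bound lectin that hold glycoproteins with 1 remaining glucose. Calr read 11.42, 11.56 and 11.41, and Canx read 12.37, 12.30 and 12.34. Neither gene separated any array from the others by more than 0.15 units, and their means were 11.47 ± 0.08 and 12.34 ± 0.04 (limma adjusted p = 3.85e-07 and 9.41e-08).

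The other 5 members of this class had nucleotide exchange, secreted or accessory roles. Manf encodes a small secreted ER protein that binds BiP. Its signals of 10.26, 10.71 and 10.62 were lowest in replicate 2 and lay 4.19 above background. Creld2, an ER stress-induced gene with disulfide isomerase activity, read 9.25, 8.85 and 9.22, lowest in replicate 4 and 2.77 above background. Sdf2l1, a partner of the ER J proteins, read 8.42, 8.32 and 8.02, and here replicate 5 was lowest. Hspa13, an ER-associated HSP70 protein, read 7.96, 7.98 and 8.16, and Hyou1, an exchange factor for BiP, read 7.84, 7.79 and 8.11. Both were highest in replicate 5. The class as a whole had a median called SD of 0.11 units, against 0.27 over all called genes. In the other classes this median ran from 0.14 for mitochondrial chaperones to 0.36 for cytosolic HSP70, HSP110 and HSP90. The class lay at a median of 4.19 units above background, against 1.43 over all called genes. At high signals outside the ER the SD was small for some genes, such as Dnaja1 (12.24 ± 0.02). It was larger for others, such as the renin and mural cell marker Myh11 (11.98 ± 0.36). The differences in SD, and the part of signal height in them, were not tested.

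**Figure D2:**
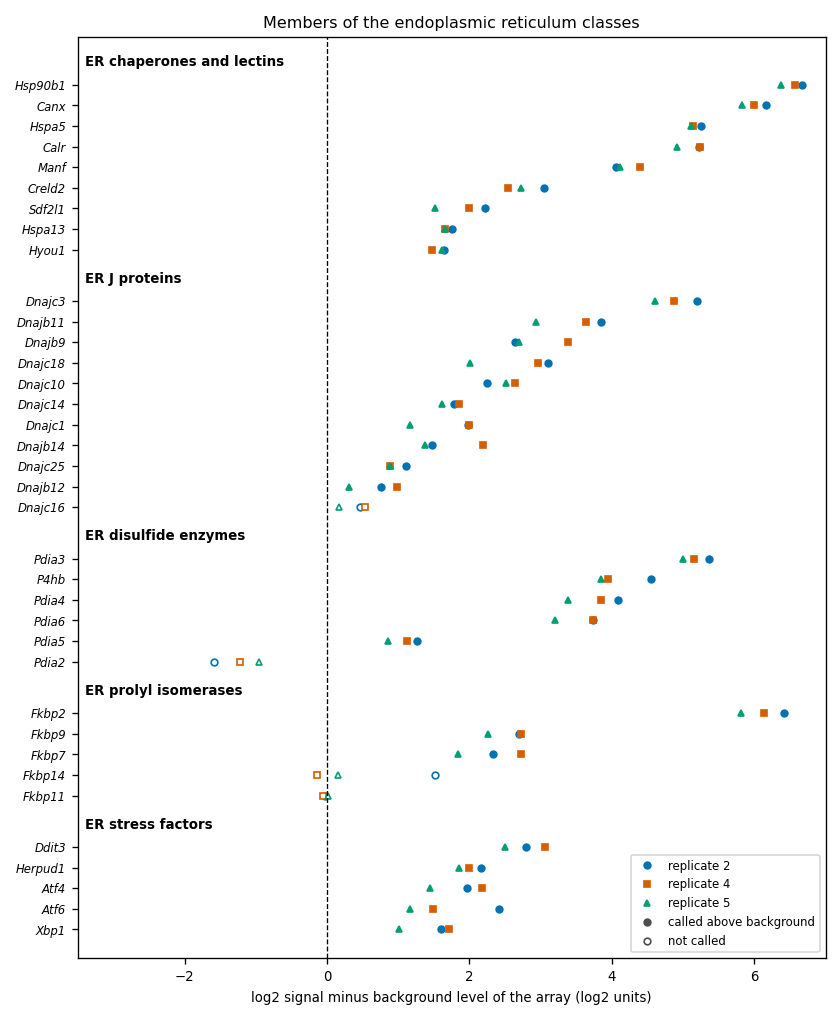
Log2 signal minus the array's background level (x axis, log2 units) for each of the 36 members of the 5 ER classes, with 1 point per array (blue circle replicate 2, orange square replicate 4, green triangle replicate 5) and filled points for called genes. The dashed line is the background level. All 9 ER chaperones and all 5 stress factors stand to the right of it on every array, and Pdia2 stands to the left of it on every array; the level itself was highest in replicate 5, which places its points further left than the log2 signals alone.

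The promoters of some of these genes share a sequence feature. The symbol rule read no sequence, but it took genes of the ER stress response by name. The counts below are therefore not independent of how the members were chosen. They describe these promoters only, and enrichment was not tested. The ER stress element, the site bound by NF-Y together with ATF6, is spelled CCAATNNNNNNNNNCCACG. The 250 bases before the transcript start were searched on both strands, from RefSeq promoters of GRCm38.p6, for the 94 of 111 members that have an entry. The element stood in 7 of these 94 members (7.45%), against 35 of 27025 genes with a promoter in the table (0.13%). All 7 were among the 31 ER members with a promoter, and 0 of the 63 other members had it. A shorter form, the ER stress element II, is spelled ATTGGNCCACG and was found in 1 member, Herpud1, and in 10 genes in all (0.037%). Every one of these elements holds a CCAAT box on 1 strand, and that box alone was found in 45 members (47.9%) and in 37.5% of all genes. A match describes letters only; no binding was measured.

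The 9 elements are shown because they were found in these 8 members alone among the 94 searched. Each is written 5′ to 3′ in the direction of the element, with the CCAAT box and the CCACG end in capitals and the spacer in lower case.
Hspa5: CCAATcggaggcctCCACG
Hsp90b1, distal: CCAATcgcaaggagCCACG
Hsp90b1, proximal: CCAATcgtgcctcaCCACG
Calr: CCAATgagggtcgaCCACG
Canx: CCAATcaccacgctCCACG
Creld2: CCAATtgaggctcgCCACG
Pdia6: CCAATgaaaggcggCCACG
Dnajc3: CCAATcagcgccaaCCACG
Herpud1, element II: ATTGGgCCACG
In GRCm38.p6 these lie at chr2:34772025-34772043 (plus strand) for Hspa5, chr10:86705638-86705656 (minus strand) and chr10:86705533-86705551 (plus strand) for Hsp90b1, chr8:84847075-84847093 (plus strand) for Calr, chr11:50325800-50325818 (minus strand) for Canx, chr15:88819520-88819538 (minus strand) for Creld2, chr12:17266491-17266509 (plus strand) for Pdia6, chr14:118937827-118937845 (plus strand) for Dnajc3 and chr8:94386377-94386387 (plus strand) for Herpud1. The spacers of the 8 full elements all differ. Hsp90b1 was the only member with 2 elements, in opposite directions.

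The promoters of Hspa5, Hsp90b1 and Herpud1 are printed in full to show how the elements sit among other CCAAT boxes. They read 5′ to 3′ on the strand of the gene, and end at the base before the transcript start; capitals mark the 2 fixed ends of each element, which appear as CGTGG and ATTGG where the element points the other way.
Hspa5: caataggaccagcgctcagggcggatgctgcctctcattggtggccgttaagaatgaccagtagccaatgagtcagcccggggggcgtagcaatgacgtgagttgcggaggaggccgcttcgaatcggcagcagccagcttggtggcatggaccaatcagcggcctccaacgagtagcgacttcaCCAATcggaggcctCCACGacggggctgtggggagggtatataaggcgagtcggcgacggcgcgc
Hsp90b1: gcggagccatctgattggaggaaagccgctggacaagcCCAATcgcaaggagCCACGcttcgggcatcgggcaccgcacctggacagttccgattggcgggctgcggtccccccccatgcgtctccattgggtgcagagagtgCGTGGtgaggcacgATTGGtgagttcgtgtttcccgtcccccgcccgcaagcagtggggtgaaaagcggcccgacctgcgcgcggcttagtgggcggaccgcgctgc
Herpud1: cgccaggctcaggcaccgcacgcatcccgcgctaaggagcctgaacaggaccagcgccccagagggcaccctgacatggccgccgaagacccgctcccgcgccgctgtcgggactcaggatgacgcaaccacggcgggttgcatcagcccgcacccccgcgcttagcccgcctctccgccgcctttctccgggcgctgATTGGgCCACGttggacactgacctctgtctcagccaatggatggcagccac
Their coordinates in GRCm38.p6 are chr2:34771840-34772089 (plus strand), chr10:86705445-86705694 (minus strand) and chr8:94386179-94386428 (plus strand). Herpud1 also held the core of the ATF4 composite element, TGATGNAA, a motif found in 3.91% of all genes and in only 1 other member, Hspa14. The core of the XBP1 site, TGACGTGG, was found in Dnajc25 and Fkbp1b and in 0.603% of all genes.

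All 8 genes with an ER stress element of either kind were called, at 2.00 to 6.54 log2 units above background. Of the 23 ER members with a promoter entry and no such element, 19 were called, at -1.25 to 6.12 for the whole 23. The SD over arrays ran from 0.01 to 0.22 in the 8 genes with an element and from 0.05 to 0.44 in the 19 called genes without one. These ranges overlap, and the lists were described without a test.

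**Figure D3:**
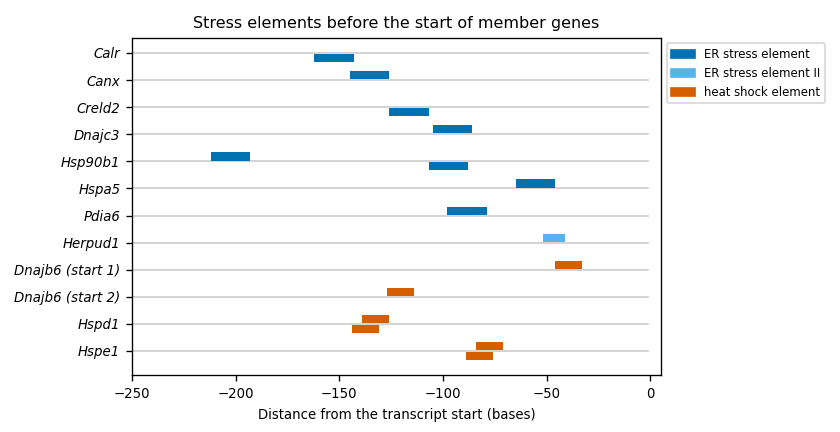
Positions of the stress elements in the 250 bases before the transcript start (x axis, bases from the start) of the 11 member genes that hold one, with bars above the line for the gene's own strand and below it for the other strand. Dark blue bars are ER stress elements, light blue the ER stress element II and orange heat shock elements. The ER stress elements lie between 212 and 47 bases before the start, and 2 stand in Hsp90b1.

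J proteins of the ER were called in 10 of 11 cases; some hand substrates to BiP in the lumen, while Dnajb12, Dnajb14 and Dnajc18 encode membrane proteins whose J domain faces the cytosol. Dnajc3, encoding P58IPK, read 11.39, 11.19 and 11.11, lowest in replicate 5, and its mean lay 4.89 above background (limma adjusted p = 7.27e-07). Dnajb11, encoding ERdj3, read 10.04, 9.96 and 9.44, and Dnajc18 read 9.31, 9.28 and 8.51. Replicate 5 was the lowest array for both, by 0.55 and 0.78 units against the mean of the other 2. Dnajb9, encoding ERdj4, an IRE1 partner and XBP1 target, went the other way, with 8.84, 9.71 and 9.20 and its lowest value in replicate 2. The uncalled member, Dnajc16, read 6.68, 6.85 and 6.67, above the level on all 3 arrays but with a limma adjusted p of 0.0538, and its call turned on the processing. Leaving out replicate 5 gave a limma adjusted p of 0.0294, and over all arrays the mean of the probe sets, quantile normalization, no trend and a filter on dim genes each gave 0.0411 to 0.0482 by limma. The other 6, Dnajb12, Dnajb14, Dnajc1, Dnajc10, Dnajc14 and Dnajc25, were called at 0.68 to 2.46 above background, and Dnajb12 was no longer called when replicate 2 was left out (limma adjusted p = 0.0619) or replicate 4 (limma adjusted p = 0.0921).

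Disulfide enzymes of the thioredoxin-like PDI family were called in 5 of 6 cases. P4hb encodes PDI itself, which is also the beta subunit of collagen prolyl hydroxylase. It read 10.75, 10.27 and 10.36, highest in replicate 2, and lay 4.12 above background (10.46 ± 0.26, limma adjusted p = 3.55e-06). Pdia3, encoding ERp57, the partner of the lectin chaperones, read 11.58, 11.47 and 11.51, with all arrays within 0.11 units. Pdia6, encoding P5, read 9.94, 10.06 and 9.71, and Pdia5 read 7.47, 7.45 and 7.36. Both were lowest in replicate 5, at 3.56 and 1.09 above background. Pdia4, encoding ERp72, read 10.28, 10.16 and 9.90 on its brighter probe set, but its second probe set read 5.99, 4.77 and 5.78, under the level on every array. It was the only probe set of the 9 members with more than 1 whose mean lay under the mean level. Pdia2, known as a pancreatic PDI, read 4.62, 5.10 and 5.55, under the level throughout.

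The oxidase that recharges PDI was measured outside the member rule. Ero1a, encoding ERO1-alpha, read 8.37, 8.31 and 7.98, lowest in replicate 5, and was called at 1.88 above background (limma adjusted p = 2.18e-04).

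Of the ER prolyl isomerases, 3 of 5 were called. Fkbp2 read 12.62, 12.46 and 12.32, a span of 0.30 units at 6.12 above background. Fkbp9 read 8.90, 9.04 and 8.77, and Fkbp7 read 8.53, 9.05 and 8.34. Both were highest in replicate 4 and lowest in replicate 5. Fkbp14, which acts on collagens, stood above the level mainly in replicate 2, with 7.71, 6.17 and 6.65 (limma adjusted p = 0.156), and was called when replicate 4 was left out (limma adjusted p = 0.0253). Fkbp11 read 6.18, 6.26 and 6.52, at the level itself.

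The transcription factors and the effector of the ER stress response were all called, at 1.44 to 2.79 above background. Ddit3 encodes CHOP, a factor induced by ATF4. It read 9.00, 9.38 and 9.00, highest in replicate 4, and its limma adjusted p was 3.00e-05. Atf4 read 8.17, 8.49 and 7.94 and Xbp1 read 7.80, 8.03 and 7.51, again with replicate 4 highest and replicate 5 lowest. Atf6 read 8.61, 7.81 and 7.66, and here replicate 2 was highest by 0.88 units against the mean of the other 2. Herpud1, whose product helps clear unfolded proteins from the ER membrane, read 8.36, 8.31 and 8.37, within 0.05 units. The probe sets give one signal per gene and do not show XBP1 splicing or ATF6 cleavage, the steps that activate these factors. At the 99th percentile level Atf6 (limma adjusted p = 0.0542) and Xbp1 (limma adjusted p = 0.0948) were not called.

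In the cytosol 9 of 11 HSP70, HSP110 and HSP90 members were called. Hspa8 encodes HSC70, the constitutive HSP70 that also uncoats clathrin vesicles. It read 12.73, 12.86 and 12.67, at 6.41 above background (12.75 ± 0.09, limma adjusted p = 7.73e-08). Hsp90aa1 read 12.07, 12.02 and 11.96, within 0.11 units. Hspa4, an HSP110-type exchange factor, read 9.98, 9.95 and 9.64, lowest in replicate 5.

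Hspa1a, a heat-inducible HSP70 gene, read 9.64, 9.30 and 8.52. Its arrays differed by 1.12 units, with replicate 2 highest and replicate 5 lowest, and it was called at 2.81 above background (limma adjusted p = 1.04e-04). Its neighbour Hspa1l read 8.42, 7.60 and 6.78, the widest span among called members at 1.64 units, and was no longer called once replicate 2 was left out (limma adjusted p = 0.0567). These genes are near-identical in parts of their coding sequence to each other and to Hspa1b, so their probe sets may share transcripts and the values are uncertain. Hspa2, Hspa4l, Hspa14 and Hsph1 were also called, at 1.05 to 2.63 above background. Hspa12a (6.54, 6.32 and 6.56) and Hspa12b (5.84, 5.72 and 6.04) were not called.

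All 9 called members of this cytosolic class had their lowest log2 signal in replicate 5. The same held for 51 of the 84 called members (60.7%) and for 52.8% of all called genes. Among the 2022 called genes at or above the median excess of the called members the share was 65.6%. For replicate 5 minus the mean of the other 2 arrays, the median was -0.36 in the cytosolic class, -0.39 in the ER stress factors, -0.31 over those 2022 genes and -0.19 over all called genes. Among called cell type markers the medians were -0.79 for endothelial, -0.75 for thick ascending limb and -0.59 for proximal tubule genes. They were -0.06 for renin and mural cell, 0.09 for collecting duct and 0.11 for macrophage and dendritic cell genes. The part of these cell types in the member values was not tested.

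**Figure D4:**
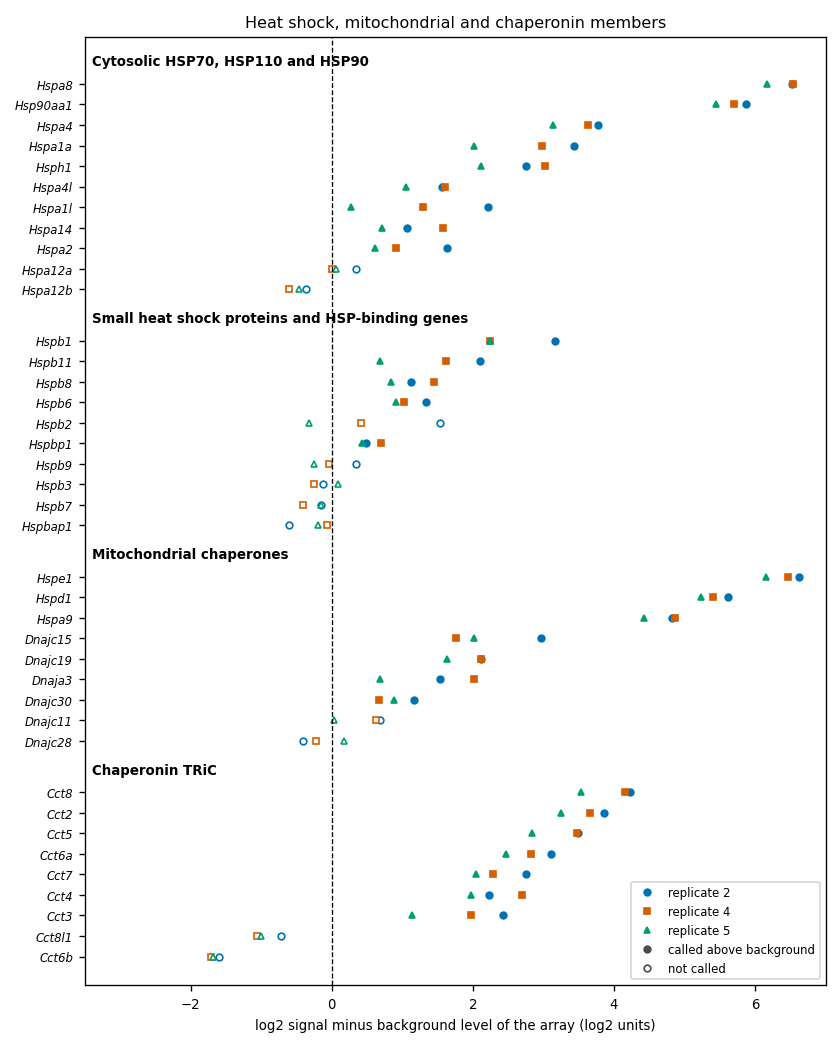
Log2 signal minus the array's background level (x axis, log2 units) for the 39 cytosolic HSP70, HSP110 and HSP90, small heat shock, mitochondrial and chaperonin members, with 1 point per array and filled points for called genes. The dashed line is the background level. Hspa8, Hsp90aa1, Hspe1 and Hspd1 hold their 3 points close together, and Hspa1a, Hspa1l and Hspb11 spread over more than 1 unit with replicate 2 at the right and replicate 5 at the left.

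Small heat shock proteins hold unfolded proteins without ATP, and only 5 of this class of 10 were called. Hspb1, encoding HSP25 in the mouse, read 9.37, 8.55 and 8.75, highest in replicate 2 and 2.55 above background. Hspb8, a partner of BAG3, read 7.32, 7.76 and 7.35, highest in replicate 4. Hspb6, encoding HSP20, a protein of smooth muscle, read 7.54, 7.34 and 7.41. Hspb11, whose product belongs to the intraflagellar transport complex of cilia, read 8.30, 7.93 and 7.19, a span of 1.11 units. Hspb2 read 7.74, 6.74 and 6.19, above the level in replicates 2 and 4 alone, and was not called (limma adjusted p = 0.144); without replicate 5 it was (limma adjusted p = 0.0123). Hspbap1 read 5.60, 6.25 and 6.30, under the level on every array, as was Hspb7, and Hspb3 and Hspb9 were not called either. The exchange factor Hspbp1 was called at 0.54 above background but not without replicate 2 (limma adjusted p = 0.0594) or replicate 4 (limma adjusted p = 0.136).

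Among the 28 other J proteins 19 were called. Dnaja1, the cytosolic partner of HSC70, read 12.26, 12.24 and 12.21, within 0.05 units, but its second probe set read 10.67, 10.37 and 9.95 and was lowest in replicate 5. Dnajc7, encoding a TPR protein that links HSP70 and HSP90, read 9.70, 9.54 and 9.16, and Dnajc8, of the splicing machinery, read 9.60, 9.18 and 9.07. Both were highest in replicate 2. Dnajb1, encoding HSP40, the heat-inducible partner of HSP70, read 7.29, 6.20 and 6.24; it stood above the level in replicate 2 alone and was not called (limma adjusted p = 0.428). Dnajb7 read 3.54, 3.72 and 3.50, under the level throughout, as were Dnajb3, Dnajb13, Dnajc5b and Dnajc5g, and Dnajb2, Dnajc6 and Dnajc27 were not called either. Another 11, namely Dnaja2, Dnajb4, Dnajc2, Dnajc4, Dnajc5, Dnajc9, Dnajc12, Dnajc17, Dnajc21, Dnajc22 and Dnajc24, were called at 0.73 to 2.80 above background. The calls of Dnaja4, Dnajb6 and Dnajb8 were lost without replicate 2 (limma adjusted p = 0.211, 0.0935 and 0.159) and without replicate 4 (limma adjusted p = 0.200, 0.121 and 0.174), and that of Dnajb5 was lost without replicate 4 (limma adjusted p = 0.0645).

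Dnajc13, which encodes RME-8, a J protein of endosomes, was covered by 15 probe sets. The brightest read 11.02, 10.73 and 11.92, with replicate 5 highest by 1.04 units against the mean of the other 2. The 15 means ran from 7.08 to 11.22, and the array order was not shared: 9 probe sets were highest in replicate 2, 1 in replicate 4 and 5 in replicate 5. All 15 means were above the mean background level, but the dimmest probe set (7.55, 7.41 and 6.28) lay under the level of 6.50 in replicate 5. The array order turns on the choice of probe set.

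Of the other FKBP genes, which lie outside the ER, 5 of 8 were called. Fkbp3, a nuclear isomerase, read 10.10, 10.18 and 10.56, highest in replicate 5. Fkbp4, encoding FKBP52, an HSP90 partner of steroid receptors, read 8.99, 9.48 and 9.03. Fkbp1a encodes FKBP12, the receptor of the drug FK506. Its values of 9.36, 9.23 and 8.73 were lowest in replicate 5, as were those of Fkbp8 (8.11, 7.88 and 7.69), an outer mitochondrial membrane member. Fkbp15 was called at 1.08 above background. Fkbp5, the glucocorticoid-induced FKBP51, was not called (limma adjusted p = 0.790), nor were Fkbpl (6.56, 6.39 and 6.35) and Fkbp1b (5.59, 5.48 and 5.94).

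The mitochondrial matrix chaperones HSP60, HSP10 and mortalin were called. Hspd1 encodes HSP60, the matrix chaperonin, and Hspe1 encodes its lid, HSP10. Hspd1 read 11.81, 11.73 and 11.73, and Hspe1 read 12.83, 12.79 and 12.66. On these brightest probe sets no array stood apart by more than 0.15 units, and the means lay 5.42 and 6.42 above background (limma adjusted p = 2.35e-07 and 7.73e-08). The second probe set read 10.97, 11.22 and 10.71 for Hspd1, highest in replicate 4, and 12.52, 12.52 and 12.31 for Hspe1, lowest in replicate 5. Hspa9, encoding mortalin, the HSP70 that pulls proteins into the matrix, read 11.02, 11.18 and 10.94. Genes for HSP60, HSP10, HSC70 and HSP90 have processed copies elsewhere in the genome, and the share of signal from such copies is unknown here.

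Hspd1 and Hspe1 stand head to head and share 1 promoter region, which is shown because its heat shock elements belong to both genes. The element was searched as GAANNTTCNNGAA on both strands. It occurred in 3 of 94 members (3.19%), namely Hspd1, Hspe1 and Dnajb6, against 0.514% of all genes. Hspd1 and Hspe1 hold the same 2 overlapping elements, at chr1:55088064-55088076 (plus strand) and chr1:55088059-55088071 (minus strand) of GRCm38.p6, and the Dnajb6 element lies at chr5:29735852-29735864 (plus strand). Capitals mark the fixed letters of the element, and the last line gives the 250 bases before the Hspd1 start on its own strand, chr1:55087933-55088182 (minus strand).
Hspd1 and Hspe1, plus strand: GAAccTTCcgGAA
Hspd1 and Hspe1, minus strand: GAAggTTCtaGAA
Dnajb6: GAAtcTTCcgGAA
Hspd1 region: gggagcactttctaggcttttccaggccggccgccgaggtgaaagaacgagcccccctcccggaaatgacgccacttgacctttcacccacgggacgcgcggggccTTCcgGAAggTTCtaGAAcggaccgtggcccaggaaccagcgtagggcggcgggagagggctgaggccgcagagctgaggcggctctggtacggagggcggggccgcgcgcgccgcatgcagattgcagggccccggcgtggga
Hspa1a and Dnajb1, both heat-inducible, had no match to these letters within their 250 bases. The members without a promoter entry were Hspa13, Hyou1, Manf, Dnajc18, Atf6, Hsp90aa1, Hspa8, Hspb2, Dnajc2, Dnajc5, Dnajc5b, Dnajc11, Dnajc12, Dnajc22, Dnajc30, Hspa9 and Cct4.

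The other mitochondrial members were J proteins and differed more between arrays. Dnajc15 read 9.16, 8.08 and 8.52, highest in replicate 2, and Dnaja3, encoding TID1, read 7.74, 8.34 and 7.20, highest in replicate 4. Their spans were 1.08 and 1.14 units, and both were called. Dnajc19 and Dnajc30 were called as well. Dnajc11 read 6.88, 6.94 and 6.53, with a limma adjusted p of 0.0567, and Dnajc28 read 5.79, 6.10 and 6.69. Neither was called, although Dnajc11 was once replicate 5 (limma adjusted p = 0.0109) or dim genes (limma adjusted p = 0.0453) were left out.

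TRiC, the cytosolic chaperonin that folds actin and tubulin, is a ring of 8 different subunits; the rule took 7 of them, and Tcp1 encodes the remaining one. All 7 were called. Cct8 read 10.43, 10.48 and 10.04, Cct2 read 10.06, 9.98 and 9.76, and Cct5 read 9.69, 9.80 and 9.35. Replicate 5 was the lowest array for each. Cct6a read 9.31, 9.15 and 8.97 and Cct7 read 8.95, 8.61 and 8.55, with replicate 2 highest. Cct4 read 8.44, 9.02 and 8.49, highest in replicate 4. Cct3 had the widest span of the subunits, with 8.63, 8.29 and 7.65. Their means lay 1.85 to 3.98 above background, with limma adjusted p from 4.67e-06 for Cct8 to 6.01e-04 for Cct3. Tcp1 read 9.22, 9.17 and 9.10 and was called at 2.82 above background (limma adjusted p = 2.52e-05). Cct6b, known from testis, read 4.60, 4.61 and 4.82, and Cct8l1 read 5.48, 5.26 and 5.50. Both were under the level on every array.

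No called ER member differed between arrays by more than 1 log2 unit. The ER member Fkbp14 did, by 1.54 units, but was not called, and a wide spread itself makes a call less likely. Among the 84 called members 6 (7.14%) had their highest and lowest array more than 1 unit apart, against 13.7% of all called genes. They are Hspa1l, Dnajc13, Dnaja3, Hspa1a, Hspb11 and Dnajc15, so that 0 of the 32 called ER members are among them, against 6 of the 52 other called members. This difference was not tested, and among called genes of the other ER lists described below the bound was passed by 1 of 18 other ER folding enzymes and 3 of 13 genes of the stress sensor and degradation list. The median SD was 0.22 units for called members and 0.27 units for all called genes. For the 2022 called genes at or above the members' median excess, 16.3% exceeded 1 unit, at a median SD of 0.29.

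**Figure D5:**
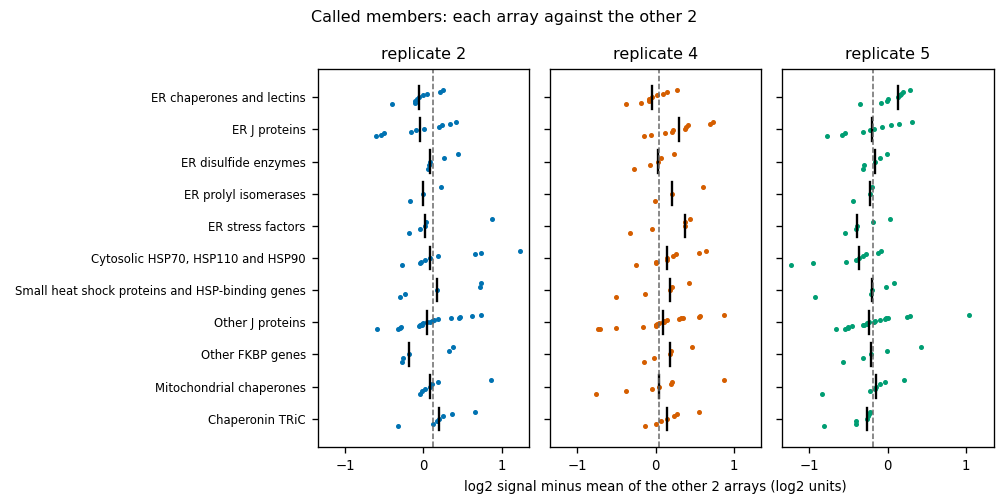
Log2 signal of each called member minus its mean on the other 2 arrays (x axis, log2 units), in 1 panel per array, with points for genes, black bars for class medians and a dashed line for the median of all called genes (0.12, 0.05 and -0.19 in replicates 2, 4 and 5). The class medians of the ER chaperones are -0.06, -0.05 and 0.13, with single genes as low as -0.40 (Manf, replicate 2), and in replicate 5 the medians of the ER stress factors and of the cytosolic class are -0.39 and -0.36.

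Several heat shock genes were highest in replicate 2. Hspa1a, Hspa1l, Hspb1, Dnajb1 and Dnajb4 had their highest log2 signal there, by 0.72 to 1.23 units against the mean of the other 2 arrays, whereas Hsph1, which is heat-inducible, was highest in replicate 4. These genes were picked after their values were seen, and replicate 2 was the highest array for 42.9% of called members, 43.8% of all called genes and 52.1% of the 2022 called genes at or above the members' median excess. Of 14 genes of the dissociation response 9 were called, of which 7 were highest in replicate 2, with a median difference of 0.53; 1 of the 14, Atf3, also stands in the stress target list below. All 7 called endothelial markers were highest in replicate 2 as well, with a median difference of 1.67. So were 11 of the 14 renin and mural cell markers, with a median difference of 0.31. The part of dissociation, of endothelial cells or of renin and mural cells in the member values was not tested.

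Other genes of the folding pathways were listed by role, with earlier results of these data known. Of these 97 genes 72 were called (74.2%), against 37.3% of all genes. Among co-chaperones and heat shock factors 19 of 23 were called. Bag1, an exchange factor of HSP70, read 11.96, 12.09 and 11.69, Ptges3, encoding the HSP90 co-chaperone p23, read 11.96, 11.79 and 11.72, and Ahsa1, encoding the HSP90 activator AHA1, read 9.91, 10.11 and 9.67. All 3 were lowest in replicate 5. The heat shock factor Hsf2 read 5.84, 6.08 and 5.20, under the level on every array. Hsf1 was not analysed here.

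Of the 15 prefoldin and TRiC partners 14 were called; the list holds prefoldin, which delivers actin and tubulin chains to TRiC, the tubulin cofactors, Tcp1, Pdcl, Pdcl3 and Txndc9. Tbca read 12.41, 12.41 and 12.34, Pfdn2 read 11.16, 11.36 and 11.38, and Pfdn5 read 10.75, 10.65 and 10.80. None of the 3 spanned more than 0.22 units. Pfdn4 fell under the level in replicate 5 alone, with 7.55, 6.99 and 5.82, and was not called (limma adjusted p = 0.256), but was without replicate 5 (limma adjusted p = 0.00409).

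Of 24 other ER folding enzymes 18 were called. Ppib, encoding cyclophilin B, a collagen prolyl isomerase, read 10.46, 10.56 and 10.58, and Ppic read 10.67, 10.10 and 10.41. Tmx2, a membrane thioredoxin-like protein with 2 probe sets, read 10.46, 10.46 and 8.08 on the brighter one. There replicate 5 lay 2.38 units under the other 2 arrays, and the array order of the second probe set is not given here. Clgn, the testis relative of calnexin, read 4.45, 4.66 and 4.49, under the level on every array.

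Stress sensors, stress targets and genes of ER-associated degradation gave the lowest called share of these lists, 13 of 24. Vcp, whose ATPase extracts proteins from the ER membrane, read 10.52, 10.64 and 10.22, and Sel1l, an adaptor of the ubiquitin ligase HRD1, read 9.28, 9.01 and 8.93. Nupr1, a stress-induced nuclear protein, read 9.92, 9.37 and 8.45, lowest in replicate 5 by 1.46 units from the highest array. The sensors Ern1 (IRE1-alpha; 6.70, 6.25 and 6.36) and Eif2ak3 (PERK; 6.92, 6.69 and 6.52) were not called, with limma adjusted p of 0.619 and 0.0970. Genes downstream of ATF4 stood on both sides. Asns was called (6.68, 6.86 and 6.71, limma adjusted p = 0.0455), as were Nupr1 and the member Ddit3, while Trib3, Chac1, Ppp1r15a, Sesn2 and Atf3 were not; Atf3 read 5.85, 5.71 and 5.92. The sensors and targets other than Nupr1, Ddit3 and Atf3 are named here after their values were seen.

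In the list of mitochondrial partners 8 of 11 genes were called. The called genes include Lonp2, whose product is a peroxisomal protease. Clpx, the unfoldase of the matrix protease, read 8.93, 8.78 and 7.59, Tomm70a, an import receptor that docks HSP70 and HSP90, read 8.63, 8.71 and 7.87, and Trap1, the mitochondrial HSP90, read 8.38, 8.63 and 8.20. Replicate 5 was the lowest array for all 3. Hscb, the J protein of iron-sulfur cluster assembly, read 6.04, 6.43 and 5.34 and was not called.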

How the data were processed

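The deposited values are log2 signals, 1 per probe set and array (35557 probe sets, 3 arrays); the log2 scale was inferred from values of 2.21 to 13.96. The submitters' processing notes name Affymetrix Expression Console; how it summarised and normalized the probes is not given in the sources used here. A NuGEN kit amplified the RNA, per the labels. Precision is limited by the number of arrays.

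Probe sets with 1 platform symbol (21789) were kept; 12147 had none and 1621 several, 10 of which name a member. The brightest probe set stood for a gene. All 111 members matched RefSeq by Entrez identifier, with 0 symbols changed. The background level (1027 olfactory receptor genes) was subtracted per array, and limma 3.58.1 (R 4.3.3) fitted an intercept, with eBayes and a trend, after a test on simulated data. Of families that did not set the level, 2 of 167 vomeronasal receptor and 10 of 44 keratin-associated protein genes were called.

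The members, classes, marker and pathway lists were chosen with earlier results of these data known. Values are given for all ER chaperones, disulfide enzymes, stress factors, TRiC subunits and Hspd1, Hspe1 and Hspa9; in each other class for the 4 called members with the highest mean, the uncalled one with the highest mean and the one with the lowest; for the 6 called members with the largest span; for members with probe sets over 2 units apart; and per pathway list for the 3 called genes with the highest mean and the lowest gene. Other names were added after their values were seen. Promoters (250 bases) were searched in Python 3.11.15. In all, 12 alternatives were run: other percentiles and families for the level, other handling of probe sets, quantile normalization, no trend, a filter on dim genes and leaving out each array.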

Additional observations from a re-analysis of the deposited data

How the results depend on the processing

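The choice of background family decided more than any other of the 12 alternatives. At the level of the 44 keratin-associated protein genes, 10 of which were themselves called at the usual level, the call was kept by 19 of the 84 members (709 genes in all): 5 ER chaperones, 1 ER J protein, 3 disulfide enzymes, 1 ER prolyl isomerase, 0 ER stress factors, 2 cytosolic HSP70 to HSP90 genes, 0 small heat shock genes, 2 other J proteins, 1 other FKBP gene, 3 mitochondrial members and 1 TRiC subunit. Of the other folding and stress genes 8 were called there: 2 co-chaperones, 3 prefoldin and TRiC partners, 2 other ER enzymes, 1 of the stress sensor list and 0 mitochondrial partners. With the 99th percentile of the olfactory receptors 59 members were called (3303 genes in all), with 3 ER stress factors, 5 cytosolic genes, 1 small heat shock gene and 10 other J proteins, and 44 other folding genes, of which 12 were co-chaperones, 9 prefoldin partners, 10 other ER enzymes, 8 of the sensor list and 5 mitochondrial partners. The 90th percentile called 96 members (9964 genes), with 5 ER prolyl isomerases and 21 of the sensor list, and the vomeronasal level called 102 (13140 genes), with 5 ER prolyl isomerases, 10 small heat shock genes and 24 of the sensor list. Under the other settings over all arrays the number of members called was 84 to 86, and without 1 array it was 78 to 87.

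Among the genes whose values are given by the naming rule, means fell under the keratin-associated level for Hspa13 (-0.63), Hyou1 (-0.75), Sdf2l1 (-0.42), Pdia5 (-1.24), Atf4 (-0.47), Atf6 (-0.64), Herpud1 (-0.32), Xbp1 (-0.89), Cct3 (-0.48), Cct4 (-0.02), Dnajc16 (-1.93), Fkbp7 (-0.03), Fkbp14 (-1.82), Hspa12a (-2.19), Hspb11 (-0.86), Hspb8 (-1.19), Hspb6 (-1.24), Hspb2 (-1.78), Dnajb1 (-2.09), Fkbp8 (-0.78), Fkbpl (-2.23), Dnajc15 (-0.08), Dnajc11 (-1.88), Hspa1l (-1.07), Dnaja3 (-0.91), Pfdn4 (-1.88), Clpx (-0.23), Trap1 (-0.26) and Tomm70a (-0.27). At the 99th percentile Dnajc16 (-0.47), Fkbp14 (-0.36), Hspa12a (-0.73), Hspb2 (-0.31), Dnajb1 (-0.63), Fkbpl (-0.77), Dnajc11 (-0.42) and Pfdn4 (-0.42) of these genes did so. Means under the usual level lay above the 90th percentile for Fkbp11 (0.35), Hspbap1 (0.08) and Dnajc28 (0.22), and above the vomeronasal level for these 3 (0.81, 0.54 and 0.68), Hspa12b (0.35), Fkbp1b (0.16), Hsf2 (0.19), Atf3 (0.32) and Hscb (0.43). With 1 array left out, the excess ran from -0.19 to 0.49 for Dnajb1, from -0.04 to 0.22 for Fkbpl and from -0.01 to 1.01 for Pfdn4, lowest without replicate 2 in each. The changes between levels follow from where the level stands; which family best gives the background was not tested. No paired analysis was possible because there is 1 group.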
